A study of Mus musculus with 12 samples.

Results

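The 10 genes described here encode channels and pumps that move calcium across the membrane of the sarcoplasmic and endoplasmic reticulum, and a sensor of that store. The channels are the ryanodine receptors Ryr1, Ryr2 and Ryr3 and the IP3 receptors Itpr1, Itpr2 and Itpr3. The pumps are the SERCA pumps Atp2a1, Atp2a2 and Atp2a3, and the store sensor is Stim1. They were taken by gene symbol, and all 10 were found among the 16503 genes of the muscle stem cell (MuSC) and myoblast table and among the 16169 genes of the genotype table. The members were selected on earlier results of these same data, among them the fall of Ryr3 in Nedd4L-cKO MuSCs. The Ryr3 values of that comparison are therefore a description. Its call there, which is counted and drawn below, follows from that choice and is no support for the change. The adjusted p-values of the other members are no independent support for the choice either. Which other measured values entered the choice is not recorded.

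RNA sequencing was made from 12 libraries of 1000 mouse cells each, in 2 sets that share no library and that the authors normalised separately. In the first set, WT MuSCs were sorted from skeletal muscle (MuSC replicates 04, 05 and 06), and WT myoblasts (myoblast replicates 04, 05 and 06) were taken after sorted MuSCs had spent 3 days in culture. For this set, the age of the mice, whether replicates came from separate mice, and whether equal numbers mark the same mouse are not given in the sources used here, so its p-values measure the spread between these libraries, which may be technical. In the second set, MuSCs came from 3 Nedd4L-cKO and 3 WT male mice aged 5 to 6 weeks (replicates 01, 02 and 03 of each), with no treatment. All fresh cells were sorted as positive for integrin alpha 7 and negative for CD31, CD45, CD11b and SCA1. In the Nedd4L-cKO mice, Cre is expressed from the Pax7 gene and removes exon 15 of Nedd4l, an exon of the catalytic domain, in cells that express Pax7 and in their descendants, while the rest of the transcript is still made. Levels are normalised counts rescaled to reads per 1000000 of the mean library total of their table (RPM), and fold changes are log2 differences of RPM + 1.

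In muscle, depolarisation of the surface membrane opens ryanodine receptors in the sarcoplasmic reticulum, the released calcium starts contraction, and SERCA pumps return it to the store. IP3 receptors release calcium from the same kind of store when phospholipase C makes inositol trisphosphate, a route used by most cells, stem cells included. When the store runs low, STIM1 in its membrane opens ORAI channels of the plasma membrane, which is called store-operated calcium entry.

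Nedd4l, the targeted gene, lay at 66.7 to 96.4 RPM in WT and at 22.5 to 36.3 RPM in Nedd4L-cKO MuSCs, so each Nedd4L-cKO library was below each WT library. These values sum the whole gene and do not read exon 15 alone. Totals of normalised counts ran from 33189802 to 50687122 per library, and the sequencing depth itself is unknown because the values are normalised. The MuSC markers (Pax7, Myf5, Calcr and 5 others) summed to 1719 to 2886 RPM in the 9 MuSC libraries and to 514 to 659 RPM in the myoblast libraries. The myoblast libraries also carried markers of differentiating myocytes, with Myog at 3344 to 4521 RPM against 524 to 732 RPM in MuSC replicates 04, 05 and 06. A sum over markers cannot tell fewer cells of a type from less RNA per cell in these bulk libraries.

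Before the levels, the 250 bases that precede the start of the Ensembl canonical transcript are shown for 4 members. In this way 2 members that were higher in myoblasts, Ryr1 and Stim1, can be read beside 2 that were lower, Ryr3 and Itpr2. The annotated genes Ryr1 and Ryr3 reach past that start, so the last bases of their windows lie inside the gene. The windows are from GRCm39, read on the strand of the gene: chr7:28824577-28824826 (minus) for Ryr1, chr7:101916729-101916978 (plus) for Stim1, chr2:113047433-113047682 (minus) for Ryr3 and chr6:146403722-146403971 (minus) for Itpr2. Capitals mark each match to CANNTG, the E-box letters that the MyoD family of myogenic factors binds.
Ryr1: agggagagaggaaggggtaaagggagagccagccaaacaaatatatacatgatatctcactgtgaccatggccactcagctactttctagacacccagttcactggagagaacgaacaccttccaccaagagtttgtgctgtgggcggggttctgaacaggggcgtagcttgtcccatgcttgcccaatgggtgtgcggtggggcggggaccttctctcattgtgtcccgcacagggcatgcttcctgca
Stim1: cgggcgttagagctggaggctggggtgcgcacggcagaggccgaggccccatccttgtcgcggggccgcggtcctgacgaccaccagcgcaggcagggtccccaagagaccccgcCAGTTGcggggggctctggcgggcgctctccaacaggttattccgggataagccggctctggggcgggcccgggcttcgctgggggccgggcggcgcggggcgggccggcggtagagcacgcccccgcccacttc
Ryr3: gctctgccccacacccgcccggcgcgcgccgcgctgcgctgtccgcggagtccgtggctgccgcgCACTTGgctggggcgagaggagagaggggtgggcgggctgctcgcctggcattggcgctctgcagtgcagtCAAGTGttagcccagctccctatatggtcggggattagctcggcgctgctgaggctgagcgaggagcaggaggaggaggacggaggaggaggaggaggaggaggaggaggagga
Itpr2: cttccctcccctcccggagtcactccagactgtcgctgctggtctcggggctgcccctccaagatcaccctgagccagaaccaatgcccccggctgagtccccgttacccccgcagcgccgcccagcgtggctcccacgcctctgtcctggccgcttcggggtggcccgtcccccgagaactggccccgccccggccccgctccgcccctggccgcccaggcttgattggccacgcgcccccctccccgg
The Ryr1 and Itpr2 windows held 0 matches, the Stim1 window held 1 match that begins 135 bases before the start, and the Ryr3 window held 2, at 185 and 114 bases before it. CANNTG reads the same on both strands and was found in 14106 of 21770 windows of this length (64.8%). CAGCTG, a single form of it, was in 11.9% of all windows and in none of the 10 members' windows. These matches describe the letters of the windows only.

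Ryr1 (ENSMUSG00000030592, chr7:28702769-28824604) is the release channel of skeletal muscle fibres. It stood at 14.1, 11.6 and 16.7 RPM in MuSC replicates 04, 05 and 06 and at 48.7, 214 and 352 RPM in the myoblast replicates. Every myoblast library was above every MuSC library, and myoblast 04 was the lowest of the 3 by a wide margin. The means were 14.1 ± 2.57 and 205 ± 152 RPM (SD, n = 3 each), a 14.5-fold difference, and the log2 fold change was 3.38, with an SE of 0.61 (limma adjusted p = 0.00236). Without myoblast 04 it was 4.201, and without myoblast 06 it was 2.79.

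Ryr3 (ENSMUSG00000057378, chr2:112461699-113047441), a ryanodine receptor found at low level in many tissues and in developing muscle, went the other way. Its MuSC libraries held 12.1, 4.73 and 6.501 RPM and its myoblast libraries 1.03, 0.94 and 4.38 RPM. The groups did not overlap, but myoblast 06 at 4.38 RPM came close to MuSC 05 at 4.73 RPM. On the log2 scale the difference was -1.58 (SE 0.49, limma adjusted p = 0.0294). The call depended on single libraries, since the adjusted p (limma) was 0.0880 without MuSC 04, 0.0616 without MuSC 06, 0.0628 without myoblast 04 and 0.102 without myoblast 05.

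Ryr2 (ENSMUSG00000021313, chr13:11567988-12121870), the cardiac form, was close to the lower limit of these data. It lay between 0.58 and 0.80 RPM in MuSCs and between 0.72 and 1.51 RPM in myoblasts, and the groups overlapped. The log2 fold change of 0.35 (SE 0.23) did not pass the test (limma adjusted p = 0.249).

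**Figure D1:**
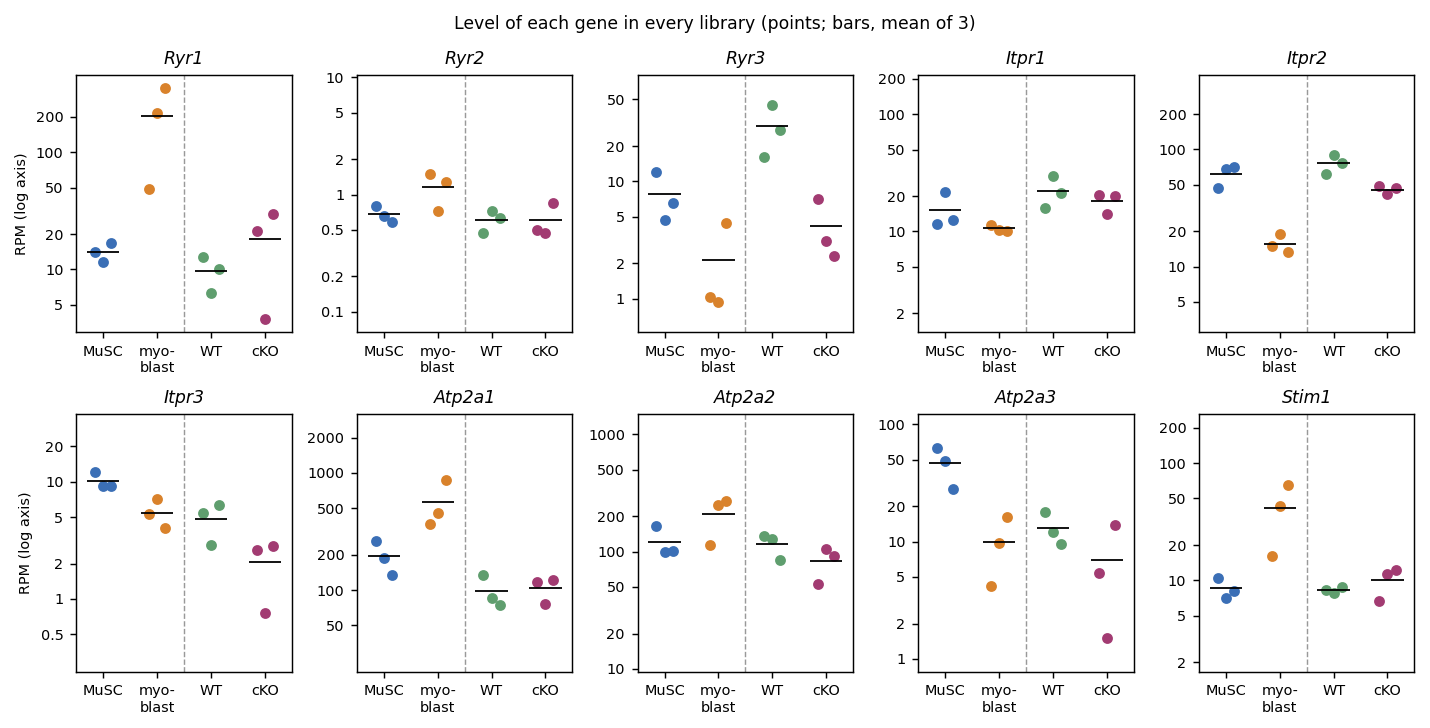
RPM of each of the 10 genes on a log axis, with 1 point per library and a bar at the mean of each group of 3. Every panel spans the same ratio from bottom to top, and the dashed line separates the 2 tables, which were normalised apart. Ryr1 and Stim1 stand out in the myoblast column and Ryr3 in the WT column, where its 3 points lie between 16.1 and 45.0 RPM.

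Itpr2 (ENSMUSG00000030287, chr6:146009797-146403721), the IP3 receptor subtype with the highest affinity for its ligand, was the leading IP3 receptor of MuSCs. It was measured at 46.9, 68.1 and 70.6 RPM in MuSCs and at 14.9, 19.1 and 13.3 RPM in myoblasts. All 3 myoblast libraries were below all 3 MuSC libraries, and the spread within each group was small. Its mean went from 61.9 ± 13.0 to 15.8 ± 2.98 RPM (SD, n = 3 each), and the log2 fold change was -1.90, with an SE of 0.26 (limma adjusted p = 0.000552). It was called under all 13 other settings tried for this comparison, with log2 fold changes from -2.08 to -1.77.

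Itpr1 (ENSMUSG00000030102, chr6:108190048-108528070), the form best known from Purkinje neurons, was at 11.5, 21.7 and 12.5 RPM in MuSCs and at 11.5, 10.4 and 10.1 RPM in myoblasts. The ranges met without crossing, as the highest myoblast library and the lowest MuSC library both rounded to 11.5 RPM, and the log2 fold change was -0.43, with an SE of 0.32 (limma adjusted p = 0.304). Itpr3 (ENSMUSG00000042644, chr17:27275971-27343866), the subtype common in epithelia, was at 12.1, 9.14 and 9.21 RPM in MuSCs and at 5.31, 7.06 and 4.00 RPM in myoblasts. Its groups did not overlap, yet the log2 fold change of -0.80 (SE 0.32) missed the threshold (limma adjusted p = 0.0719). It was called in a single other setting, limma without its trend and robust options (adjusted p = 0.0361).

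Atp2a1 (ENSMUSG00000030730, chr7:126045013-126063423) encodes SERCA1, the pump of fast muscle fibres. It held 260, 188 and 135 RPM in MuSCs, so it was far from silent in freshly sorted cells, and 363, 456 and 867 RPM in myoblasts. Every myoblast library exceeded every MuSC library, and myoblast 06 lay well above the others. On the log2 scale it was higher by 1.48 (SE 0.35, limma adjusted p = 0.00863). Exons of Rabep2 on the opposite strand cover 17.6% of the exon bases of Atp2a1, and an unstranded kit does not mark the strand of reads. That percent is over the 6751 bases of all Atp2a1 exons in GENCODE M39, where the canonical transcript has 4141. The levels were quantified on M28 basic transcripts, and whether reads of Rabep2 entered the Atp2a1 level was not tested.

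Atp2a3 (ENSMUSG00000020788, chr11:72851990-72883870) encodes SERCA3, a pump known from blood, endothelial and epithelial cells. It moved against Atp2a1, with 63.5, 49.0 and 28.1 RPM in MuSCs and 4.15, 9.72 and 16.2 RPM in myoblasts. The groups did not overlap, and myoblast 06, the highest for Atp2a1, was also the highest of the myoblasts for Atp2a3. The mean was 4.68-fold lower in myoblasts, and the difference was -2.21 on the log2 scale (SE 0.47, limma adjusted p = 0.00538). Endothelial markers summed to 9.90 to 16.6 RPM in MuSCs and 7.81 to 13.4 RPM in myoblasts, and immune markers to 2.74 to 6.65 and 3.12 to 3.51 RPM. These sums are over part of each list, as the endothelial Kdr, Emcn and Cldn5 and the immune Adgre1 and Lyz2 are not listed in this table. The part of these markers in the difference was not tested.

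Atp2a2 (ENSMUSG00000029467, chr5:122591575-122640903), whose product SERCA2 is the pump of most cells, of heart and of slow fibres, overlapped between the groups. It stood at 165, 98.8 and 101 RPM in MuSCs and at 114, 247 and 270 RPM in myoblasts, where replicate 04 was within the MuSC range. The difference of 0.73 on the log2 scale (SE 0.35) was not called (limma adjusted p = 0.120). Without myoblast 04 it was 1.12 and passed the test (limma adjusted p = 0.00510). Exons of Gm43361 on the opposite strand cover 26.2% of the exon bases of Atp2a2, and those of Gm57291 cover 3.24%. These percents are over the 12239 bases of all Atp2a2 exons in GENCODE M39, where the canonical transcript has 4438. Whether reads of these genes entered the Atp2a2 level was not tested either.

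Stim1 (ENSMUSG00000030987, chr7:101916979-102086526) rose with Ryr1 and Atp2a1. It was at 10.5, 7.12 and 8.15 RPM in MuSCs and at 16.2, 42.8 and 65.3 RPM in myoblasts, with no overlap and again with myoblast 04 the lowest. Its mean was 4.83-fold higher in myoblasts and the log2 fold change was 1.96, with an SE of 0.46 (limma adjusted p = 0.00912), or 2.51 without myoblast 04.

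In all, 6 of the 10 members were called in myoblasts against MuSCs, with an adjusted p of 0.05 or less: Ryr1, Atp2a1 and Stim1 higher, and Ryr3, Itpr2 and Atp2a3 lower. Among all 15345 genes tested, 42.8% were called, 22.2% as higher and 20.6% as lower. The median log2 fold change was -0.040 over the members and 0.039 over all genes tested. Groups did not overlap for 8 members, beside 55.2% of all genes tested. Because earlier results were known when the members were listed, nothing is read from these counts.

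**Figure D2:**
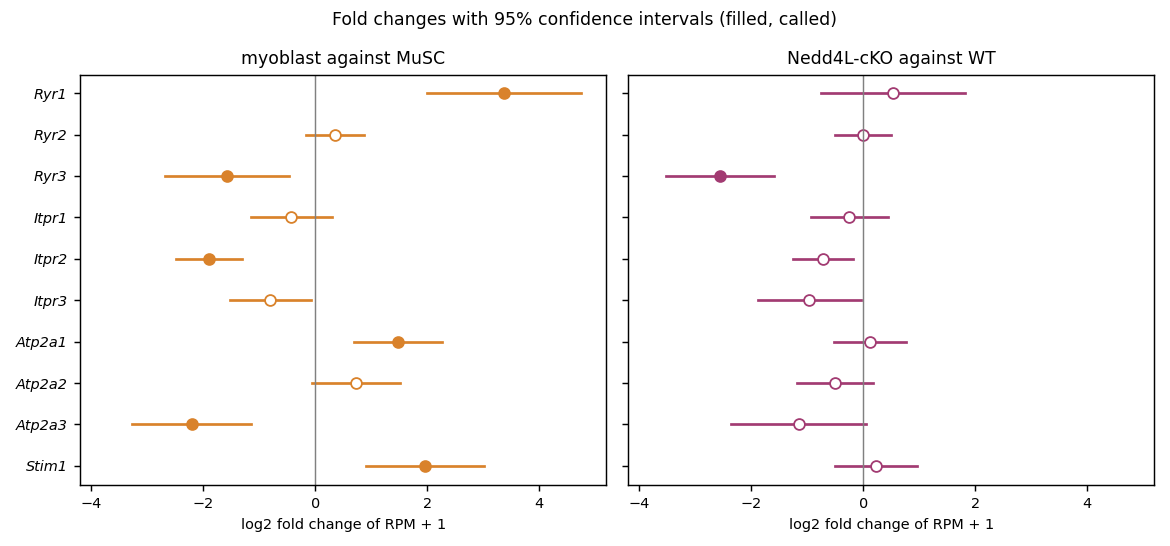
Log2 fold change of RPM + 1 for each member with its 95% confidence interval, for myoblasts against MuSCs (left) and Nedd4L-cKO against WT MuSCs (right). Filled points were called, and open points were not. In the left panel the ryanodine receptors and the pumps have members on both sides of 0 and the IP3 receptors are all below it, with values from -2.21 for Atp2a3 to 3.38 for Ryr1, while on the right only Ryr3, whose fall was known when it was listed, is filled.

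Since the transcripts differ in length, levels were compared between members as RPM per kilobase (kb) of the canonical transcript. In MuSC replicates 04, 05 and 06 the order ran from Atp2a1 at 46.9 ± 15.2 and Atp2a2 at 27.4 ± 8.44 (SD, n = 3 each), whose ranges overlapped, through Atp2a3 at 10.4 ± 3.93 and Itpr2 at 5.23 ± 1.10, each apart from its neighbours. Stim1 at 1.93 ± 0.39, Itpr1 at 1.54 ± 0.57, Itpr3 at 1.13 ± 0.19, Ryr1 at 0.92 ± 0.17 and Ryr3 at 0.50 ± 0.25 then followed as a run in which each neighbour overlapped the next. Ryr2 was last at 0.040 RPM per kb. In myoblasts Atp2a1 led at 136 ± 64.8 RPM per kb, apart from Atp2a2 at 47.4 ± 19.0, and Ryr1 came next at 13.4 ± 9.90, overlapping Stim1 at 9.32 ± 5.52. Ryr1 thus stood at rank 8 of the 10 in MuSCs and at rank 3 in myoblasts, and Itpr2 at rank 4 and, with 1.33 ± 0.25, at rank 6. In myoblasts the range of Itpr2 overlapped those of both neighbours, Atp2a3 at 2.21 ± 1.33 and Itpr1 at 1.08 ± 0.073, so that rank is not firm. The range of Ryr1 overlapped those of Itpr3 and Ryr3 in MuSCs and that of Stim1 in myoblasts, so its exact ranks are not firm either.

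The make-up of the 3 families was read in each library as each gene's share of its family's RPM per kb. Ryr1 made up 52.5, 68.6 and 70.5% of the ryanodine receptor level in MuSC replicates 04, 05 and 06 and 95.3, 99.3 and 98.5% in myoblasts. Ryr3 took most of the rest in MuSCs, with 44.7, 27.8 and 27.2%. The sum of the 3 ryanodine receptors was 1.46 ± 0.33 RPM per kb in MuSCs and 13.6 ± 9.9985 in myoblasts (SD, n = 3 each), so the family both grew and narrowed to Ryr1.

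The IP3 receptors went the opposite way in level. Their sum was 7.90 ± 1.29 RPM per kb in MuSCs and 3.02 ± 0.43 in myoblasts. Itpr2 made up 61.3, 64.2 and 72.3% of that sum in MuSCs and 41.9, 46.8 and 43.3% in myoblasts, and the share of Itpr1 was 19.3 ± 4.73% and 36.1 ± 4.97%. In MuSC replicates 04, 05 and 06 the IP3 receptor sum was above the ryanodine receptor sum, and in the myoblasts the order of these means was the reverse.

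For the pumps, the sum was 84.7 ± 26.8 RPM per kb in MuSCs and 185 ± 81.2 in myoblasts. The share of Atp2a1 was 55.1, 57.8 and 52.9% in MuSCs and 76.7, 65.5 and 76.5% in myoblasts. Atp2a3 made up 12.1 ± 1.88% of the family in MuSCs and 1.13 ± 0.28% in myoblasts. Shares inside a family do not depend on the scaling of a library but do depend on the transcript length used.

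**Figure D3:**
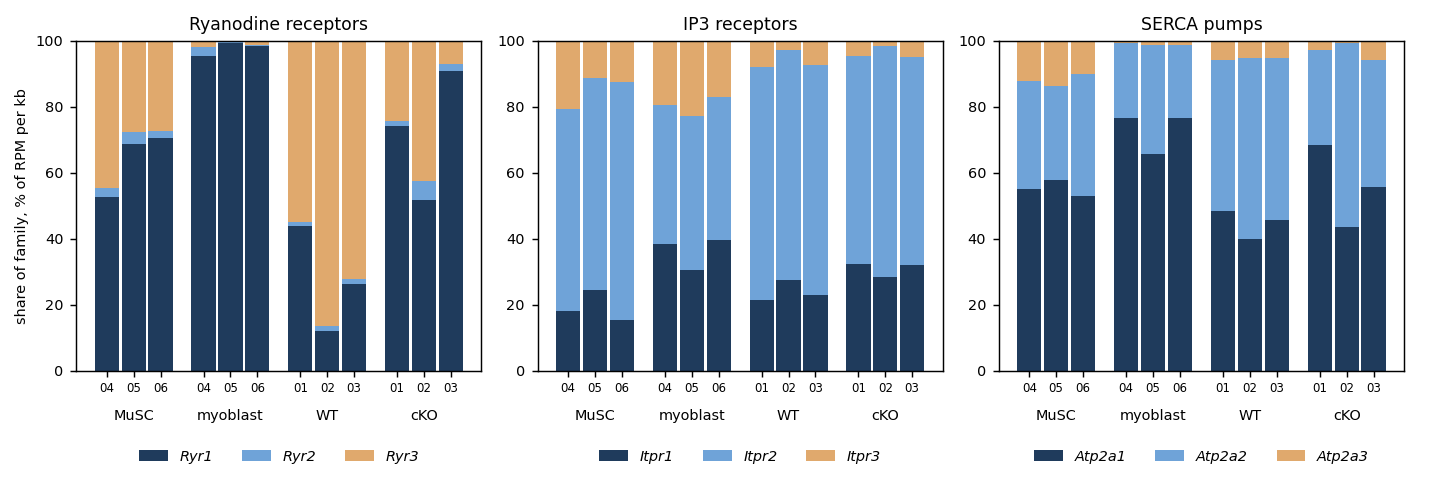
Share of each gene in its family's RPM per kb (percent, stacked to 100) for all 12 libraries, grouped as MuSC and myoblast replicates 04 to 06 and WT and Nedd4L-cKO MuSC replicates 01 to 03. Ryr1 fills 95.3% or more of the ryanodine receptor bar in the myoblasts, Ryr3 fills 54.8 to 86.6% of it in the WT MuSCs of the genotype set, and Itpr2 is the widest band of the IP3 receptors in every library.

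The partners of these channels were read from 7 lists of 112 gene symbols, a few of which are other names of a gene already listed, such as Mrvi1 for Irag1. Of these, 98 were tested in this comparison and 49 (50%) called, a share not far above the 42.8% of all genes tested. The list with the most genes called held the proteins that hold, gate or load the ryanodine receptor at the junction of the surface membrane and the store. Of its 22 genes, 17 were called higher in myoblasts and 0 lower, beside 22.2% and 20.6% of all genes. The list median was a log2 fold change of 2.99 beside 0.039 over all genes tested. The lists were chosen with earlier results of these data known, so the list counts and medians here and below are a description. Casq2, a calsequestrin that binds calcium inside the store, was at 2.04 ± 2.09 RPM in MuSCs and 821 ± 585 RPM in myoblasts (SD, n = 3 each). Cacna1s, the voltage sensor that opens Ryr1, went from 0.092 ± 0.037 to 105 ± 67.8 RPM. Jph2, which tethers the surface membrane to the store, and Trdn, which anchors calsequestrin to the receptor, had log2 fold changes of 5.66 (SE 0.44) and 5.59 (SE 0.59). All 4 were called (limma adjusted p from 2.54e-05 for Jph2 to 0.000134 for Trdn), and they are the 4 with the largest increases in the list. The 5 that were not called were Cacna2d1, Jph1, Fkbp1a, Homer1 and S100a1.

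The small membrane peptides and proteins that regulate SERCA did not move as a group. Mrln (myoregulin), which slows the pump in skeletal muscle, was at 43.6, 105 and 109 RPM in MuSCs and at 3.17, 5.93 and 10.6 RPM in myoblasts. Its log2 fold change of -3.53 and SE of 0.46 (limma adjusted p = 0.000425) made it the largest decrease of the list, and Atp2a1 rose in the same libraries. Pln (phospholamban), the brake on the cardiac pump, fell by 1.49 and 1810037I17Rik fell by 0.71 on the log2 scale (limma adjusted p = 0.00892 and 0.0461). Smim6 rose by 2.2002 (adjusted p = 0.00755). Sln (sarcolipin), another inhibitor of the pump, ranged from 17.1 to 273 RPM among the myoblasts and did not pass the test (log2 fold change 2.15, SE 0.90, limma adjusted p = 0.0835).

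Around the IP3 receptors, 3 of 19 tested genes were called higher and 1 lower, a smaller share than the 42.8% of all genes. Itprip, which binds IP3 receptors, rose from 2.10 ± 1.71 to 32.6 ± 12.2 RPM (log2 fold change 3.51, limma adjusted p = 0.000349). Plcb3, a phospholipase C that makes IP3, rose by 1.99 and Irag1, an IP3 receptor-associated substrate of cGMP kinase, by 1.72, while the phospholipase Plcd1 fell by 1.03 on the log2 scale (limma adjusted p = 0.00178, 0.0258 and 0.0175). Beside Stim1, 2 of 10 genes of store-operated entry were called higher and 1 lower, again beside 42.8%. Orai2, a pore-forming partner of STIM1, rose from 4.15 ± 1.05 to 69.1 ± 29.3 RPM (log2 fold change 3.71, limma adjusted p = 7.41e-05), and Stimate by 0.83, while the channel Trpc1 fell by 0.99. Orai1 overlapped between the groups, with 18.3 to 34.0 RPM in MuSCs and 10.4 to 81.6 RPM in myoblasts.

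Among the calcium-binding proteins of the store lumen, Rcn2 and Calr (calreticulin) rose and Rcn3 fell, by 2.51 on the log2 scale (limma adjusted p = 0.000241), and the other 7 of 10 were not called. Of 13 genes that export calcium or carry it into mitochondria, 6 were higher and 3 lower, beside 22.2% and 20.6% of all genes. The sodium-calcium exchangers Slc8a1 and Slc8a3 rose by 4.11 and 2.57, from mean levels of 0.10 and 0.018 RPM, and Atp2c1, a Golgi calcium pump, and Mcu, the mitochondrial uniporter, by 1.60 and 1.55. Atp2b4, a plasma membrane calcium pump, fell from 54.9 ± 16.7 to 5.07 ± 1.74 RPM, and Micu3 and Smdt1, which belong to the uniporter complex, fell by 1.48 and 1.11 on the log2 scale. Of 18 readers of the calcium signal, 4 were higher and 5 lower, close to those same shares. Camk2a, a calmodulin-dependent kinase, rose by 3.38, Camk2d by 1.24, Camk2g by 1.17 and the calcineurin subunit Ppp3r1 by 0.64, while the calcineurin regulator Rcan2 fell by 3.67, the calcineurin targets Nfatc2 and Nfatc1 by 3.37 and 1.13, and calmodulin (Calm2) by 1.03 (limma adjusted p from 6.29e-05 for Rcan2 to 0.0301 for Nfatc1).

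**Figure D4:**
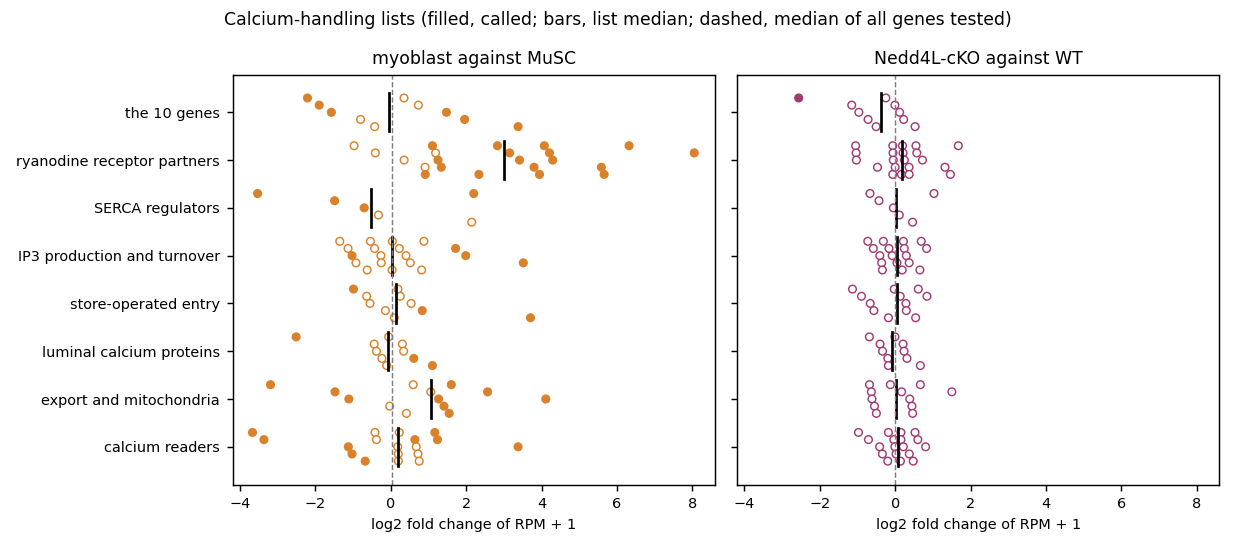
Log2 fold change of RPM + 1 for every tested gene of the 10 members and the 7 lists around them, with filled points for called genes, a bar at each list median and a dashed line at the median of all genes tested. In myoblasts against MuSCs (left) the median of the ryanodine receptor partners is at 2.99. In Nedd4L-cKO against WT (right) Ryr3, which was listed with its values known, is filled and no gene of the 7 lists is.

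Markers of muscle fibres moved with Ryr1, Atp2a1 and Stim1. The 17 myofiber markers (Acta1, Ckm, Ttn and others) summed to 410, 628 and 414 RPM in MuSC replicates 04, 05 and 06 and to 11188, 19697 and 30813 RPM in the myoblasts. Of them, 13 were called higher and 0 lower, and none was at 0 throughout. The 9 myocyte markers were all called higher, with sums of 969 to 1242 RPM in MuSCs and 9197 to 23405 RPM in myoblasts. Myoblast 04 had the lowest sum of both lists and the lowest Ryr1, Atp2a1, Atp2a2, Atp2a3 and Stim1 of the 3 myoblast libraries, and myoblast 06 had the highest of each. The part of these markers in the members' differences was not tested.

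With the members that were lower in myoblasts, markers listed for fibro-adipogenic cells were lower too. They summed to 2875 to 3324 RPM in MuSCs and 270 to 381 RPM in myoblasts, with 5 of 7 tested called lower and 1 higher, and most of the sum was Col3a1 and Gsn. Levels within the list were uneven: Col3a1, Gsn and Cd34 were the highest in the MuSCs of this set, and Pdgfra was at 2.39 RPM or less. Ly6a was the marker called higher in myoblasts. Col1a1, Dcn, Cd34 and Col3a1 had the largest decreases among the markers of the list that were called. Their part in the result was not tested.

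**Figure D5:**
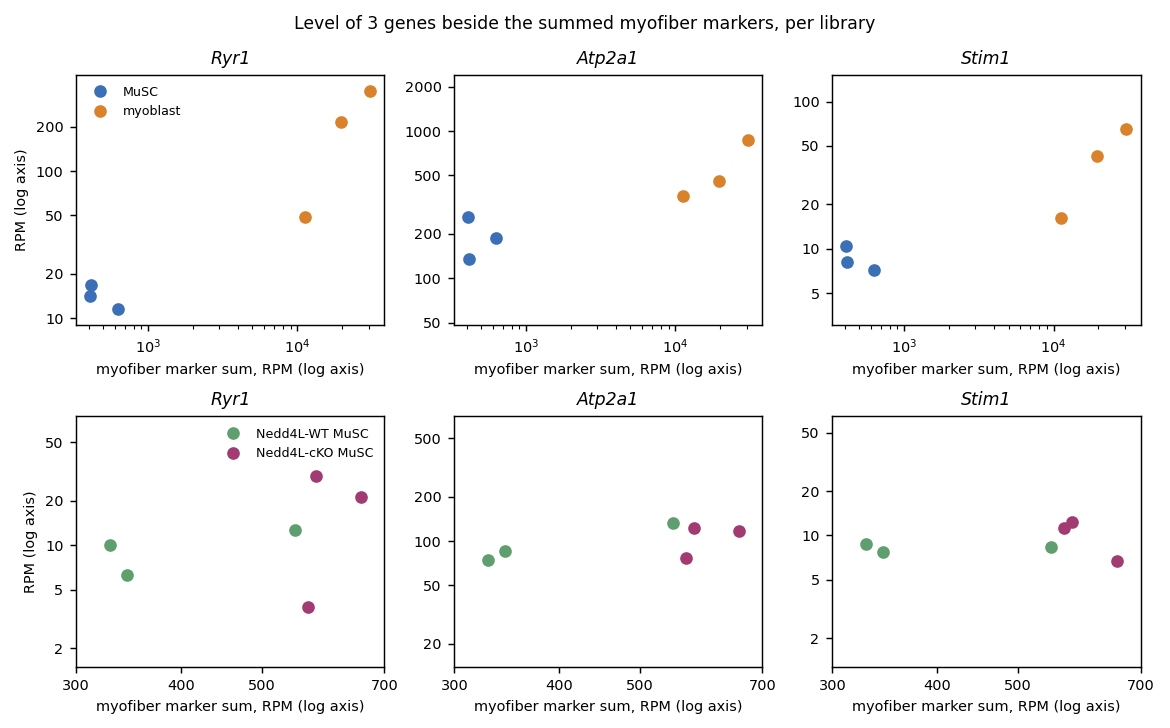
RPM of Ryr1, Atp2a1 and Stim1 against the summed RPM of the 17 myofiber markers in each library, both on log axes, for MuSCs and myoblasts (top) and for WT and Nedd4L-cKO MuSCs (bottom). In the top row the myoblast libraries lie to the right, at sums of 11188 to 30813 RPM, and the bottom row spans sums of 329 to 656 RPM.

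The genotype comparison asked what the loss of Nedd4L activity changed in MuSCs. Ryr3 was measured at 16.1, 45.0 and 27.6 RPM in WT replicates 01, 02 and 03, and in the Nedd4L-cKO replicates it was at 7.06, 3.13 and 2.29 RPM. All 3 Nedd4L-cKO libraries were below all 3 WT libraries. The means were 29.6 ± 14.5 and 4.16 ± 2.54 RPM (SD, n = 3 each), a 7.11-fold difference, and the log2 fold change was -2.56 (SE 0.44). These values were known when the member was listed, so no p-value is given for them. The call of Ryr3 counted below is no test of them. Exons of Aven on the opposite strand cover 4.83% of the bases of all Ryr3 exons in GENCODE M39. Whether reads of Aven entered the Ryr3 level was not tested.

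Ryr1 overlapped between the genotypes, at 12.8, 6.26 and 10.03 RPM in WT and 21.4, 3.79 and 29.7 RPM in Nedd4L-cKO MuSCs. Replicate 02 of the Nedd4L-cKO was the lowest of the 6 libraries and replicates 01 and 03 were the highest. Its log2 fold change of 0.53 had an SE of 0.59 and a 95% confidence interval of -0.76 to 1.82 and was not called (limma adjusted p = 0.724). It was 1.35 without Nedd4L-cKO 02 and 0.0049 without Nedd4L-cKO 03, so its size rested on single libraries. Ryr2 lay between 0.47 and 0.85 RPM in all 6 libraries.

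As a share of the ryanodine receptor level per kb, Ryr3 made up 54.8, 86.6 and 72.1% in the WT libraries and 24.3, 42.4 and 6.94% in the Nedd4L-cKO libraries. Ryr1 was the larger share in each Nedd4L-cKO library, at 74.2, 51.7 and 90.7%, and the smaller in each WT library, at 43.7, 12.1 and 26.4%. The sum of the family was 2.58 ± 0.73 RPM per kb in WT and 1.497 ± 0.89 in Nedd4L-cKO MuSCs (SD, n = 3 each). Since Ryr3 enters every one of these shares, they are a description too.

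Itpr2 was at 62.1, 90.4 and 76.7 RPM in WT and at 48.5, 41.4 and 46.7 RPM in Nedd4L-cKO MuSCs, with no overlap. The log2 fold change of -0.72 (SE 0.25), whose 95% confidence interval was -1.26 to -0.18, did not pass the test over all genes (limma adjusted p = 0.218). Itpr3 was low throughout, at 5.42, 2.86 and 6.28 RPM in WT and 2.61, 0.75 and 2.84 RPM in Nedd4L-cKO MuSCs. Its highest Nedd4L-cKO library was just under its lowest WT library, and the log2 fold change was -0.96, with an SE of 0.42 (limma adjusted p = 0.323). Itpr1 overlapped, at 15.8 to 29.7 RPM in WT and 14.1 to 20.6 RPM in Nedd4L-cKO MuSCs (log2 fold change -0.25, SE 0.31, limma adjusted p = 0.761). The family sum was 9.25 ± 1.76 RPM per kb in WT and 5.92 ± 0.79 in Nedd4L-cKO MuSCs, with Itpr2 at 69.9 ± 0.48% and 65.4 ± 3.94% of it.

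No SERCA pump was called between the genotypes. Atp2a3 was at 17.9, 12.2 and 9.51 RPM in WT and 5.37, 1.51 and 13.9 RPM in Nedd4L-cKO MuSCs, and its log2 fold change of -1.15 (SE 0.55) did not pass (limma adjusted p = 0.366). Atp2a2 was at 136, 127 and 84.7 RPM in WT and 52.4, 105 and 91.0 RPM in Nedd4L-cKO MuSCs (log2 fold change -0.51, SE 0.31, limma adjusted p = 0.484). Atp2a1 was at 134, 85.7 and 73.9 RPM in WT and 116, 76.4 and 122 RPM in Nedd4L-cKO MuSCs, with a log2 fold change of 0.12 (95% confidence interval -0.53 to 0.76). Its direction turned when each library was scaled to its own total (-0.0108) and without WT 03 or Nedd4L-cKO 03 (-0.0581 and -0.0068). Stim1 was at 8.34, 7.74 and 8.73 RPM in WT and 6.72, 11.3 and 12.3 RPM in Nedd4L-cKO MuSCs, overlapping, with a log2 fold change of 0.22 (95% confidence interval -0.50 to 0.95).

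A gene counted as called between the genotypes when its adjusted p was 0.05 or less, its log2 fold change was 1 or more in size and its mean reached 5 RPM. That called 1 of the 10 members, Ryr3, beside 0.653% of the 15304 genes tested (0.451% higher and 0.203% lower in Nedd4L-cKO MuSCs, or 69 and 31 genes). With each library scaled to its own total the split was 49 and 38 genes. Groups did not overlap for 3 members, Ryr3, Itpr2 and Itpr3, beside 19.3% of all genes tested. The median log2 fold change was -0.38 over the members and 0.0015 over all genes tested. Nothing is read from these counts, because Ryr3 was listed with its values known.

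The 7 lists around the members had 96 genes tested and 0 called by limma, and 22 of them (22.9%) had an unadjusted p under 0.05, beside 14.6% of all genes tested. The median log2 fold change of the ryanodine receptor partners was 0.19, with 12 of 21 above 0 and 9 below. Of these 21, 8 had an unadjusted limma p under 0.05 and 0 were called. Whether the lists differ between the 2 comparisons was not tested.

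Markers of other cells also differed between the genotype groups. The 17 myofiber markers summed to 548, 345 and 329 RPM in WT replicates 01, 02 and 03 and to 656, 567 and 581 RPM in the Nedd4L-cKO libraries, with 16 of 17 log2 fold changes above 0, 0 called higher and 1, Actn3, called lower. The 9 myocyte markers, all above 0 in log2 fold change, summed to 218 to 1002 RPM in WT and 696 to 1454 RPM in Nedd4L-cKO MuSCs, and Actc1 alone was called. Smooth muscle and pericyte markers summed to 1147 to 1824 RPM in WT and 2086 to 3102 RPM in Nedd4L-cKO MuSCs, with 5 of 6 above 0 and 0 called. None of these markers was at 0 throughout. MuSC markers summed to 2031 to 2886 RPM in WT and 1719 to 2365 RPM in Nedd4L-cKO MuSCs, with 7 of 8 below 0 and 1, Chrdl2, called lower. Fibro-adipogenic markers overlapped, at 2489 to 3907 and 2029 to 4027 RPM, although Cd34 was called lower. Immune markers summed to 2.24 to 38.8 RPM in WT and 2.68 to 10.2 RPM in Nedd4L-cKO MuSCs. The immune marker Adgre1 and the endothelial markers Kdr, Emcn, Cldn5 and Cdh5 are not listed in this table, and Pecam1 was at 15.05 to 23.7 RPM in WT and 19.7 to 49.9 RPM in Nedd4L-cKO MuSCs. The part of these markers in the levels of Ryr3 and the other members was not tested.

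The 6 WT MuSC libraries of the 2 sets can be set side by side as levels, but not tested, since the tables were normalised apart. Ryr3 was at 4.73 to 12.1 RPM in MuSC replicates 04, 05 and 06 and at 16.1 to 45.0 RPM in WT replicates 01, 02 and 03, so the first set lay below the second set's WT libraries and overlapped Nedd4L-cKO replicate 01 at 7.06 RPM. Atp2a3 had the opposite difference, at 28.1 to 63.5 RPM and 9.51 to 17.9 RPM. Itpr3 (9.14 to 12.1 and 2.86 to 6.28 RPM) and, by a narrow gap, Atp2a1 (135 to 260 and 73.9 to 134 RPM) were also higher in the first set without overlap. The other 6 members overlapped between the sets, among them Itpr2 (46.9 to 70.6 and 62.1 to 90.4 RPM), Ryr1 (11.6 to 16.7 and 6.26 to 12.8 RPM) and Stim1 (7.12 to 10.5 and 7.74 to 8.73 RPM). Inside the ryanodine receptor family, where scaling cancels, Ryr3 held 33.3 ± 9.95% in the first set and 71.2 ± 15.9% in the second (SD, n = 3 each), and the age of the first set's mice is not known here.

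The genes whose pattern over the 12 libraries was closest to that of Ryr1 and Ryr3 were found by the root mean square (RMS) difference of log2(RPM + 1), centred in each table, over 14342 genes tested in both. For Ryr1 they were Chil1 (RMS 0.41), Tmem200a (0.48) and Ablim1 (0.54), where the median gene was at 1.54. In the genotype set Chil1 and Tmem200a averaged only 0.57 and 1.24 RPM, where the added 1 flattens differences, so their likeness says little there. For Ryr3 they were Adamtsl1 (RMS 0.46), D830030K20Rik (0.52) and Gabra3 (0.53), where the median gene was at 1.28. Adamtsl1, a secreted matrix protein, had log2 fold changes of -2.08 in myoblasts and -2.39 in Nedd4L-cKO MuSCs, and Gabra3, a GABA receptor subunit, -1.98 and -2.19, beside -1.58 and -2.56 for Ryr3. These likenesses were picked from all genes and are a description.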

How the data were processed

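Libraries were made with the SMART-Seq HT and Nextera XT kits, which do not mark strand. The authors quantified reads with Kallisto 0.46.1 on GENCODE M28 basic transcripts (GRCm39), summed them to genes with tximport and normalised each table with DESeq2. The values used are these deposited normalised counts, a signal on a relative scale and not raw counts, so no count model was run. Whole reads could not be recovered, as 48.7 to 65.7% of low values fell within 0.05 of whole multiples of a single step. Columns of the authors' own comparisons (fold changes, p-values) and of rescaled values were not used.

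Each table was scaled to RPM by the mean of its library totals. Genes with at least 10 normalised counts in at least 3 libraries were tested with limma 3.58.1 (R 4.3.3; trend and robust options) on log2(RPM + 1), with Benjamini-Hochberg adjustment over all genes tested. For genes at low levels the added 1 makes fold changes too small. The limma steps were tested on simulated data. Python 3.11.15, pandas 2.3.3 and matplotlib 3.10.9 made the summaries and figures. Positions, lengths and promoter windows come from a later GENCODE release (M39, GRCm39). p-values measure the spread between the 3 libraries of each group.

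The members and the lists around them were chosen with earlier results of these data known. Named were all 10 members, Nedd4l, of each list at most the 4 called genes with the largest change in each direction, and for Ryr1 and Ryr3 the 3 genes nearest in pattern. Genes named as not called, Sln, Orai1 and the markers were named after their values were seen. A further marker list is not reported here. In the first set, same-numbered MuSC and myoblast libraries also share a number in their sample descriptions. What that number marks is not given, and outside the replicate block the tests did not pair them. In the second set the description numbers all differ, so same-numbered libraries share only their replicate number and the block there has no such label behind it. Alternatives were another pseudocount, other filters, other scalings, limma without trend and robust, a replicate block, leaving out each library and other transcript lengths.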

Additional observations from a re-analysis of the deposited data

How the results depend on the processing

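Of 14 changed settings per member in the genotype comparison and 13 in the myoblast comparison, Ryr1, Itpr2, Atp2a1, Atp2a3 and Stim1 kept their direction and their call in myoblasts under all 13. Ryr3 in myoblasts was called in 9 of 13, and the cause was not tested. Its genotype log2 fold change ran from -2.94 to -2.21, a description. The members counted as called between genotypes were 0 without the trend and robust options, and 0 to 1 with a library left out (0 without WT 02, Nedd4L-cKO 02 or Nedd4L-cKO 03); this count is that of Ryr3, whose values chose it, and nothing is read from it. The genotype direction reversed for Atp2a1 with each library scaled to its own total (-0.0108) and with a library left out (-0.0581 to 0.3643), and for Ryr2 with a library left out (-0.1136 to 0.0526). Genes called between genotypes were 100 (69 higher and 31 lower); they were 195 with at least 10 normalised counts in every library, 41 without trend and robust, 62 with the replicate block and 17 to 148 with a library left out, and 49 higher and 38 lower with each library scaled to its own total. That scaling moved the median log2 fold change of all genes from 0.0015 to -0.091, and in myoblasts from 0.039 to 0.14. List genes called between genotypes were 0 to 1 with a library left out: Casq2 without WT 03 and Atp2b4 without Nedd4L-cKO 01, named after their values were seen. The threshold on adjusted p alone, added after the data were seen, called 120 genes and the same single member. With the replicate number as the replicate block, 6078 genes and the same 6 members were called in myoblasts; the block changed no other call of a member. Same-numbered libraries deviated from their group means with correlations of -0.031, -0.0050 and 0.018 in the first set and 0.019, -0.023 and -0.18 in the second, and 1 of 6 libraries in each set correlated best with its own number.

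By union of exons the share of Itpr2 was 48.3% in myoblasts, 74.5% in WT and 71.1% in Nedd4L-cKO MuSCs, and that of Atp2a1 60.6% in MuSCs and 81.1% in myoblasts. Without division by length Itpr2 was at 49.3%, 73.9% and 69.5% in myoblasts, WT and Nedd4L-cKO MuSCs. The leading pump of WT MuSCs in the genotype set changed with the length used. Per kb of canonical transcript Atp2a2 held 49.9% and Atp2a1 44.6%, and by union of exons they held 36.2% and 54.6%. Depth is unknown, so levels near 1 RPM, as for Ryr2, carry no counting interval.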
